A study of Mus musculus with 31 samples.

Results

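The 10 genes described here carry glucose and fatty acids from the blood into muscle, trap them there, or control that traffic. They were taken by name as known genes of fuel uptake. They make up 10 of 54532 identifiers measured in the ERRα3SA experiment and 10 of 35275 in the insulin experiment, and all 10 were found in both tables through their GENCODE symbols. Slc2a3, Prkag3, Fabp3 and Lpl had been named by the study for the muscle comparison described here, so their direction there is not independent evidence.

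Muscle takes up glucose mainly through GLUT4, the transporter encoded by Slc2a4, which insulin and contraction bring from storage vesicles to the cell surface, and hexokinase then traps the sugar as glucose 6-phosphate. Fatty acids reach the fibre after lipoprotein lipase has freed them from blood triglyceride at the capillary wall, cross the membrane with the help of CD36 and fatty acid transport proteins, and travel through the cytosol on fatty acid-binding protein. The energy sensor AMPK acts on both routes, and ERRα, the product of Esrra, is a transcription factor of the nuclear receptor family that switches on genes of oxidative metabolism.

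RNA was sequenced from liver and skeletal muscle (gastrocnemius and soleus) of C57BL/6N mice on a normal diet, in a pair of experiments on ERRα in insulin action. The mice were males of 2 to 3 months compared with littermates of equal age, unless another age is stated for an experiment. The first experiment held livers and muscles of ERRα3SA mice, whose endogenous Esrra was edited by CRISPR so that 3 serines phosphorylated by the kinase GSK3β are alanines, and of WT littermates from matings of heterozygous mice. It had 4 samples each of WT muscle, ERRα3SA muscle, WT littermate liver and ERRα3SA liver, and no treatment is stated for these mice. In the second, WT mice and mice lacking ERRα in the whole body (ERRα KO) were fasted for 12 h, given saline or insulin (1 unit per kg) into the peritoneum, and sampled 4 h later. Its livers numbered 4 from WT mice after saline and 4 after insulin, and 4 from ERRα KO mice after saline and 3 after insulin. Whether liver and muscle samples with 1 number came from 1 mouse is not stated.

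Total counts per sample were 23561675 to 25831378 in WT muscle, 22241960 to 28835765 in ERRα3SA muscle, 23426588 to 33412022 in WT littermate liver and 20481405 to 22836176 in ERRα3SA liver. In the insulin experiment they were 35871419 to 48317108. At these depths each of the 10 genes had at least 149 counts in every muscle sample, while Fabp3 and Prkag3 had at most 28 in every liver. Levels are given as CPM (counts scaled to library size), with TMM factors over all samples of a table, and levels of different genes are compared only per kilobase of exon (normalised FPKM). The counts of both tables were scaled separately, so levels were not tested across them.

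The tissue labels held in the marker genes. In the WT littermates, 10 markers of skeletal muscle summed to 127681 to 143377 CPM in muscle and to 4.64 to 21.5 CPM in liver, and 10 markers of liver summed to 112901 to 129773 CPM in liver and to 0.607 to 1.76 CPM in muscle. Esrra marked the ERRα KO livers. Its level in the WT livers was 32.3, 51.3, 42.7 and 40.5 CPM with saline and 53.7, 96.5, 56.1 and 59.0 CPM with insulin. In the ERRα KO livers it was 1.63, 0.703, 1.15 and 1.04 CPM with saline and 0.833, 0.576 and 0.298 CPM with insulin, below every WT liver. The log2 fold change of ERRα KO against WT was -5.20 with saline (standard error 0.24, adjusted p = 2.58e-06 by edgeR) and -6.86 with insulin (standard error 0.37, adjusted p = 3.55e-05 by edgeR).

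A pair of ERRα3SA muscle libraries stood apart before any gene was tested. In replicate 1, genes of the mitochondrial genome took 19.3% of the counts, against 9.15 to 9.85% in the other ERRα3SA muscles and 10 to 10.8% in WT muscle, and 16984 genes had a count, against 20237 to 20878 and 19794 to 20242. The mean absolute deviation of its log2 levels from the rest of its group was 0.632, while replicates 2, 3 and 4 had 0.161, 0.168 and 0.327. Replicate 4 carried 224 summed CPM of macrophage markers (7 genes, with Mrc1 the most abundant) and 18.4 of neutrophil markers (6 genes, with Csf3r the most abundant and the defining marker Ly6g at 0), against 75.2 to 96.6 and 0.518 to 1.13 in replicates 1 to 3. In WT muscle these sums were 74.5 to 97.2 and 0.316 to 3.00. The muscle results of the 10 genes are therefore given with all samples, without ERRα3SA replicate 1, and without replicates 1 and 4, the last being chosen after the data were seen. Those of wider gene lists are given with all samples and without replicate 1 only.

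**Figure D1:**
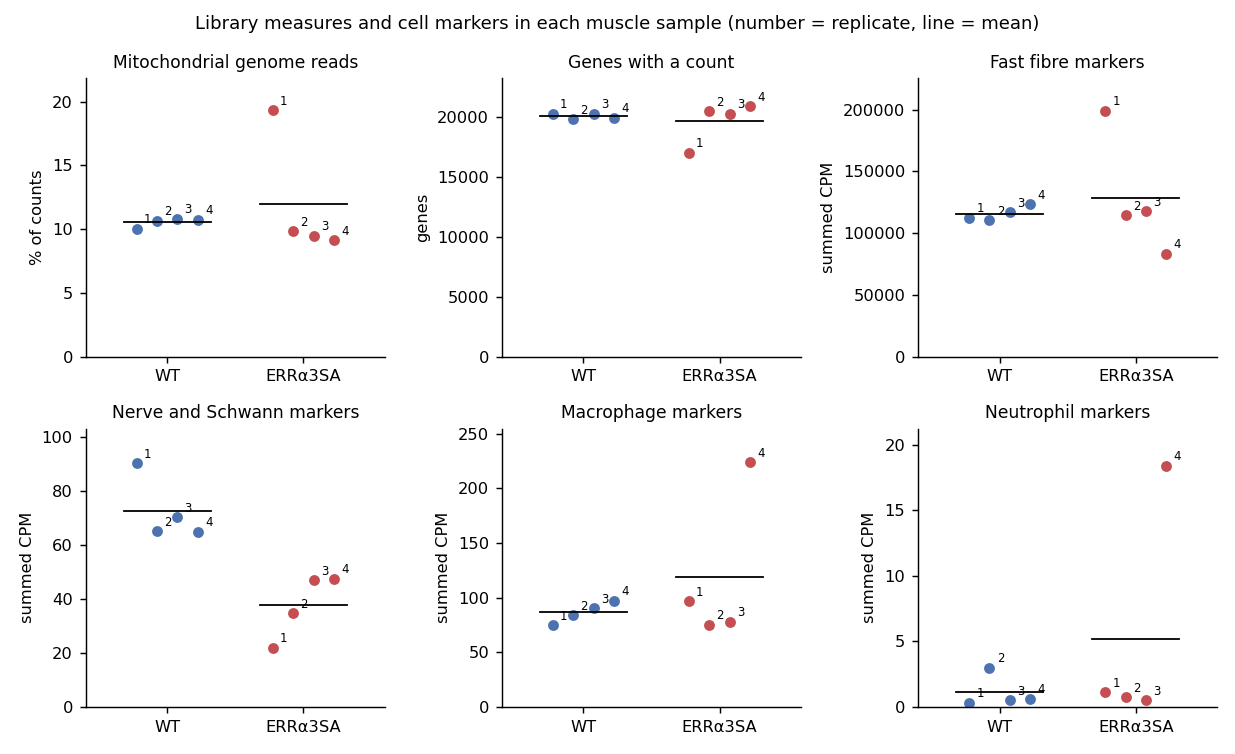
Mitochondrial share of the counts, genes with a count and summed marker levels (vertical axes, in %, genes or CPM) in the 4 WT and 4 ERRα3SA muscle samples, with each point labelled by its replicate and lines at the means. ERRα3SA replicate 1 had 19.3% mitochondrial counts and the most fast fibre transcript, replicate 4 had the most macrophage and neutrophil transcript, and nerve markers were lower in all 4 ERRα3SA samples than in any WT sample.

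In healthy muscle the fatty acid carrier stood far above the rest. Per kilobase of exon, Fabp3 had the highest level in WT muscle, with 397 normalised FPKM (SD 80.0, n = 4). Slc2a4 followed with 129 (SD 5.48), Cd36 with 91.8 (SD 3.38) and Lpl with 75.1 normalised FPKM (SD 3.44). Prkaa2 at 51.4, Hk2 at 51.0 and Prkag3 at 49.3 normalised FPKM came next, with SDs of 2.30, 1.84 and 0.873, and these 3 neighbours did not differ beyond their spread. The order ended with Slc27a1 at 13.6 (SD 1.78), Tbc1d1 at 10.1 (SD 0.298) and Slc2a3, the transporter better known from neurons, at 2.67 normalised FPKM (SD 0.34). With the length of the longest transcript in place of all exons, Lpl moved to 191 normalised FPKM, above Slc2a4 at 141, and Slc27a1 to 24.8, while Prkag3 moved to 64.1 and Hk2 to 55.2 with Prkaa2 at 51.4, so the order of these 3 depends on the length used.

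All 10 genes were higher in WT muscle than in WT liver by edgeR with an adjusted p under 0.05 and met the study's criterion, an unadjusted p under 0.05 with a fold change of at least 1.2, which the study applied with DESeq2 and which is applied here to edgeR unless another tool is named. Of all 14886 genes tested in that comparison, 86.5% had such an adjusted p and 84.2% met the criterion, so the count says little about these genes, while the sizes differ widely. The log2 fold change of muscle over liver was 11.82 for Fabp3, 10.17 for Prkag3, 9.71 for Slc2a4 and 8.0 for Hk2, which liver replaces with other isoforms. It was 5.36 for Slc2a3, 4.83 for Lpl, 3.92 for Slc27a1, 3.27 for Tbc1d1, 3.10 for Cd36 and 2.24 for Prkaa2. The value for Fabp3 rests on 9, 0, 0 and 0 counts in the WT livers and that for Prkag3 on 6, 0, 3 and 7, so both genes passed the filter through muscle and the size and order of their values depend on the prior count of the fit. In WT liver the order per length was Prkaa2 at 11.1 (SD 0.35) and Cd36 at 10.9 normalised FPKM (SD 3.39), which did not differ beyond their spread, then Lpl at 2.70 (SD 0.24), Tbc1d1 at 1.07 (SD 0.13) and Slc27a1 at 0.915 (SD 0.12), of which the last neighbours overlapped. Hk2 followed at 0.201 normalised FPKM. Slc2a4 at 0.145, Fabp3 at 0.0873, Slc2a3 at 0.0650 and Prkag3 at 0.0430 normalised FPKM were near the limit of detection.

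**Figure D2:**
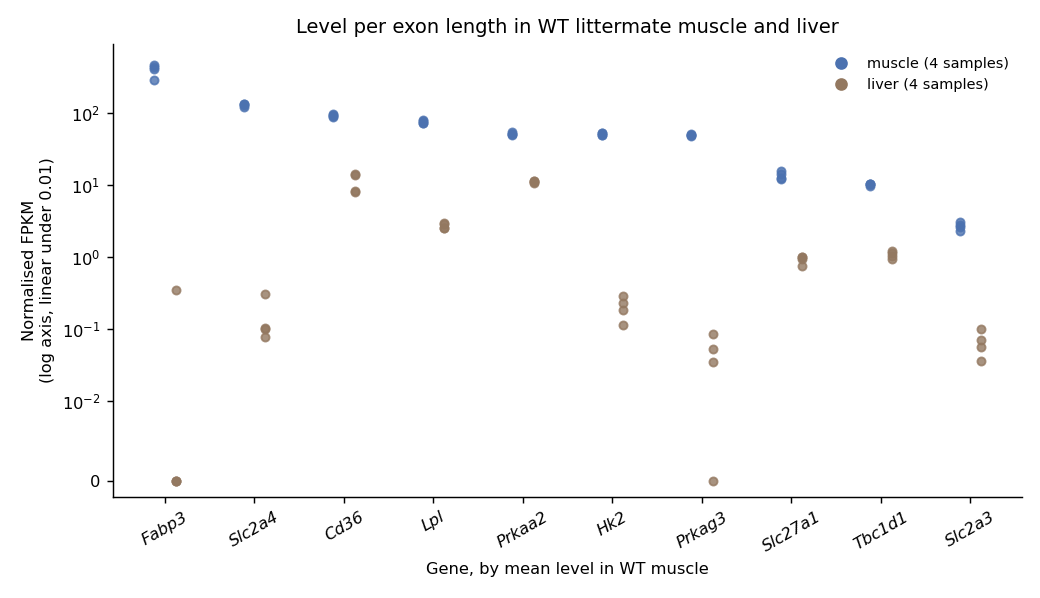
Normalised FPKM (vertical axis, logarithmic above 0.01) of the 10 genes in 4 WT littermate muscles and 4 WT littermate livers, with 1 point per sample and genes ordered by their mean in muscle. Fabp3 leads in muscle at 397 and has no count in 3 of the 4 livers, and Prkaa2 and Cd36 lead in liver at 11.1 and 10.9.

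RefSeq lists promoters (250 bases before to 50 after a start site, build GRCm38.p6) for 7 of the 10 genes, 10 promoters in all, and none is listed for Slc2a4, Slc2a3 or Lpl. Each was searched on both strands for the extended half-site bound by ERR family receptors (TNAAGGTCA), the shorter half-site AGGTCA that it contains, the E-box CAGCTG read by myogenic factors, the TATA box TATAAA, and the MEF2 site. The extended half-site was in 0 of the 10 promoters and in 1.28% of all 32851 promoters of the table, and AGGTCA was in 1 of the 10, that of Cd36, and in 16.3% of all. CAGCTG was in 3 of the 10, of Prkag3, Tbc1d1 and Slc27a1, and in 16.3% of all. TATAAA was in 0 of the 10 and 13.6% of all, and the MEF2 site in 0 of the 10 and 3.19% of all. The promoters of the fatty acid carrier, the AMPK subunit and the fatty acid receptor are shown because the muscle results turn on the first 2 and because the third holds the only half-site. Capitals mark the matches, CAGCTG at 40 bases before the start site of Prkag3 and the half-site of Cd36, read on the other strand, at 228 bases before it, and a match is a description of letters, not of binding.
Fabp3 (chr4:130308488-130308787, plus strand): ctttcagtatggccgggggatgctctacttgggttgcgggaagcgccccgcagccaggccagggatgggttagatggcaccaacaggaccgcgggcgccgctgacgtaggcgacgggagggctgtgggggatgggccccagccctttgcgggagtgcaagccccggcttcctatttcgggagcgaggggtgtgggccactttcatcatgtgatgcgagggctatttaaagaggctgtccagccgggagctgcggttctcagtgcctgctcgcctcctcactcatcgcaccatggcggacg
Prkag3 (chr1:74748906-74749205, minus strand): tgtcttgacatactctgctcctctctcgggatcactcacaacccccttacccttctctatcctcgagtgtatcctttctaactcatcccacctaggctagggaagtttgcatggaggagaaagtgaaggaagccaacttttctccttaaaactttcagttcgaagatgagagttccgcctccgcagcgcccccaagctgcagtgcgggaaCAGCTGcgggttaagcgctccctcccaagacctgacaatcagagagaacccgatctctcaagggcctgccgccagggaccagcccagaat
Cd36 (chr5:17835847-17836146, minus strand): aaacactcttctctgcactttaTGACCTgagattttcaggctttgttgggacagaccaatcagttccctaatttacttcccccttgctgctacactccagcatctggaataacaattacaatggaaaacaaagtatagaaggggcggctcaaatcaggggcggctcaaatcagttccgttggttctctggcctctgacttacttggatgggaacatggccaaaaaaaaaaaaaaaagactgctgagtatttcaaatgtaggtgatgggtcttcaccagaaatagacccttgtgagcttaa

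The muscle comparison asks whether fuel-uptake genes differ in level when these serines of ERRα cannot be phosphorylated. The clearest difference was in Fabp3, which was higher in all 4 ERRα3SA muscles than in any WT muscle. Prkag3, the AMPK subunit of fast fibres, was lower in all 4 than in any WT muscle, with most of the difference in replicates 1 and 4. The share of all genes whose groups do not overlap was not counted, in muscle or in liver. For the 10 genes a lack of overlap is therefore only described. The values of Slc2a4, Cd36, Tbc1d1 and Lpl in ERRα3SA muscle were close to WT in every sample but replicate 1. With all samples, 1 of the 10 genes, Fabp3, met the study's criterion, against 4.54% of the 14081 genes tested, and 0 passed an adjusted p of 0.05 by edgeR, as did 0% of all genes. At an unadjusted p under 0.05 edgeR gave 1 of the 10 and DESeq2 gave 2 of the 10 with 1 adjusted call, where it made 56 adjusted calls among 14009 genes. The voom method of limma with sample quality weights gave 3 adjusted calls, where it made 1820 among 14081 genes. All 10 passed the filter on low counts. In whole muscle, fewer cells of a type and less RNA per cell cannot be told apart.

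Esrra itself was at 90.2, 82.7, 67.0 and 78.1 CPM in WT muscle and at 24.3, 133, 127 and 94.6 CPM in ERRα3SA muscle. Replicate 1 lay below every WT sample and the other 3 above every WT sample. By edgeR its log2 fold change was 0.28 (standard error 0.41, adjusted p = 1.00 by edgeR) with all samples and 0.60 (standard error 0.12, adjusted p = 0.0373 by edgeR) without replicate 1, when it rose in 3 of 3 samples.

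Among the glucose genes, Slc2a4 was at 460, 441, 468 and 425 CPM in WT muscle and at 144, 506, 480 and 430 CPM in ERRα3SA muscle. The WT values lay close together, replicate 1 was far below them, and replicates 2 and 3 were just above. Its log2 fold change was -0.17 (standard error 0.32) with all samples, 0.11 (0.07) without replicate 1 and 0.15 (0.06) without replicates 1 and 4, so the sign turned on 1 library and the adjusted p from edgeR was 0.130 or higher each time. Slc2a3 was at 18.5, 20.3, 22.2 and 16.4 CPM in WT muscle and at 8.39, 19.0, 16.1 and 9.34 CPM in ERRα3SA muscle. Replicates 1 and 4 were far below the WT range, replicate 3 just under it and replicate 2 inside it. By edgeR its log2 fold change was -0.52 (standard error 0.25, adjusted p = 1.00 by edgeR), -0.36 (0.20) without replicate 1 and -0.12 (0.12) without replicates 1 and 4. Without replicate 2 it was -0.74 and met the study's criterion.

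Hk2, the hexokinase of insulin-sensitive tissue, was at 296, 313, 315 and 294 CPM in WT muscle and at 438, 358, 373 and 289 CPM in ERRα3SA muscle. Replicates 1, 2 and 3 lay above every WT sample and replicate 4 below every one. Its log2 fold change was 0.29 (standard error 0.13, adjusted p = 1.00 by edgeR), 0.19 (0.08, adjusted p = 0.196) without replicate 1, and 0.28 (0.06, adjusted p = 0.00972) without replicates 1 and 4, when it rose. Without replicate 4 alone it was 0.38 and met the study's criterion. Tbc1d1 encodes a brake on GLUT4 vesicles that AKT and AMPK release. It was at 74.9, 76.4, 71.9 and 76.8 CPM in WT muscle and at 90.2, 69.2, 74.2 and 69.0 CPM in ERRα3SA muscle, where replicate 1 was high and the rest lay within or just under the WT range, and its log2 fold change was 0.04 (standard error 0.11) with all samples, -0.05 (0.06) without replicate 1 and -0.05 (0.07) without replicates 1 and 4.

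Both AMPK subunits had their lowest value of all 8 muscles in replicate 4. Prkag3, whose regulatory subunit is found mainly in fast glycolytic fibres, was at 183, 182, 185 and 177 CPM in WT muscle and at 108, 169, 164 and 85.4 CPM in ERRα3SA muscle. The groups did not overlap, the WT samples were nearly level, and replicates 1 and 4 were far below replicates 2 and 3. On the log2 scale the fold change was -0.44 (standard error 0.20, adjusted p = 1.00 by edgeR), -0.35 (0.19, adjusted p = 0.289) without replicate 1 and -0.10 (0.06, adjusted p = 0.295) without replicates 1 and 4. It met the study's criterion at -0.57 without replicate 2 and at -0.55 without replicate 3. Prkaa2, the catalytic subunit typical of muscle, was at 399, 397, 436 and 406 CPM in WT muscle and at 454, 362, 360 and 260 CPM in ERRα3SA muscle. Replicate 1 lay above every WT sample and replicates 2, 3 and 4 below every one. In the fit the log2 fold change was -0.16 (standard error 0.16, adjusted p = 1.00 by edgeR) and, without replicate 1, -0.29 (0.10, adjusted p = 0.140), which met the study's criterion, and -0.16 (0.06) without replicates 1 and 4, which did not.

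Beside Prkag3, the 10 fast fibre markers, with Myh4 the most abundant, summed to 112368, 110353, 117010 and 123410 CPM in WT muscle and to 199003, 114408, 117815 and 83316 CPM in ERRα3SA muscle. Replicate 1, with low Prkag3, had the most fast fibre transcript and replicate 4, with the lowest Prkag3, the least, and no fast marker was at 0. The 9 slow fibre markers summed to 3458, 3478, 3062 and 3546 CPM in WT muscle and to 4608, 2360, 2960 and 3188 CPM in ERRα3SA muscle. The sum of the 5 fibroblast markers was highest in replicate 4, at 2730 CPM against 1028 to 1555 CPM in the other 7 muscles. Col3a1 alone made up 1444 CPM of it. The 5 genes did not move together, and without replicate 1 the fit had 2 of them higher and 3 lower. The part of fibre type and of other cells in these differences was not tested.

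On the fatty acid side, Lpl was at 749, 810, 766 and 825 CPM in WT muscle and at 2227, 857, 854 and 766 CPM in ERRα3SA muscle. Replicate 1 stood far out, replicates 2 and 3 were just above the WT range and replicate 4 was inside it. The log2 fold change of Lpl was 0.61 (standard error 0.32, adjusted p = 1.00 by edgeR) with all samples, 0.10 (0.07, adjusted p = 0.391) without replicate 1 and 0.14 (0.06) without replicates 1 and 4. Without replicate 4 alone it was 0.76 and met the study's criterion. The sum of the endothelial markers (8 genes, Pecam1 the most abundant there and none at 0) was also highest in replicate 1, at 397 CPM against 308 to 354 CPM in the other 7 muscles. Pecam1 alone was at 119 CPM there, against 74.3 CPM in replicate 4, so much of the excess lay in 1 gene. The sum of the adipocyte markers, with Cfd the most abundant, was not highest in replicate 1, at 84.6 CPM with 2 of 8 genes at 0, against 67.7 to 140 CPM. Their part in the value of Lpl was not tested.

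Cd36, the fatty acid receptor of the fibre and capillary membrane, was at 329, 343, 333 and 314 CPM in WT muscle and at 452, 345, 325 and 322 CPM in ERRα3SA muscle. Again replicate 1 alone was far above the WT range. The log2 fold change was 0.16 (standard error 0.13) with all samples, 0.04 (0.06) without replicate 1 and 0.04 (0.06) without replicates 1 and 4. Slc27a1, which encodes a transport protein that also activates fatty acids, was at 92.1, 83.5, 72.4 and 69.6 CPM in WT muscle and at 58.6, 123, 120 and 74.4 CPM in ERRα3SA muscle. Replicates 2 and 3 were above every WT sample, replicate 4 within the WT range and replicate 1 below it. On the log2 scale the fold change was 0.27 (standard error 0.23, adjusted p = 1.00 by edgeR), 0.44 (0.16, adjusted p = 0.146) without replicate 1, which met the study's criterion, and 0.63 (0.09, adjusted p = 9.63e-04) without replicates 1 and 4, when it rose.

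Fabp3, which carries fatty acids through the cytosol of oxidative muscle and heart, was at 383, 360, 233 and 330 CPM in WT muscle and at 427, 552, 544 and 551 CPM in ERRα3SA muscle. Every ERRα3SA sample was above every WT sample, replicates 2 to 4 were nearly level, and replicate 1 was the lowest of its group. In the fit the log2 fold change was 0.69 (standard error 0.17, adjusted p = 0.725 by edgeR) with all samples, 0.79 (0.15, adjusted p = 0.0291) without replicate 1 and 0.76 (0.13, adjusted p = 0.00281) without replicates 1 and 4. Fitted together with the livers of the same table, which then share 1 estimate of the spread, it was 0.67 with an unadjusted p of 0.0572 by edgeR, past neither threshold. Slow fibre muscle is rich in this carrier, and the slow fibre sum was highest in ERRα3SA replicate 1, at 4608 CPM, and 2360 to 3188 CPM in replicates 2 to 4 against 3062 to 3546 CPM in WT muscle, and its part in the level of Fabp3 was not tested. Fabp3 shares 81 of its 823 exon bases with Zcchc17 on the other strand, and whether the counts were made by strand is not stated. A processed copy, Fabp3-ps1, had 55 to 72 counts in WT muscle and 93 to 103 in ERRα3SA muscle beside 6155 to 10893 and 7596 to 17223 for Fabp3.

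**Figure D3:**
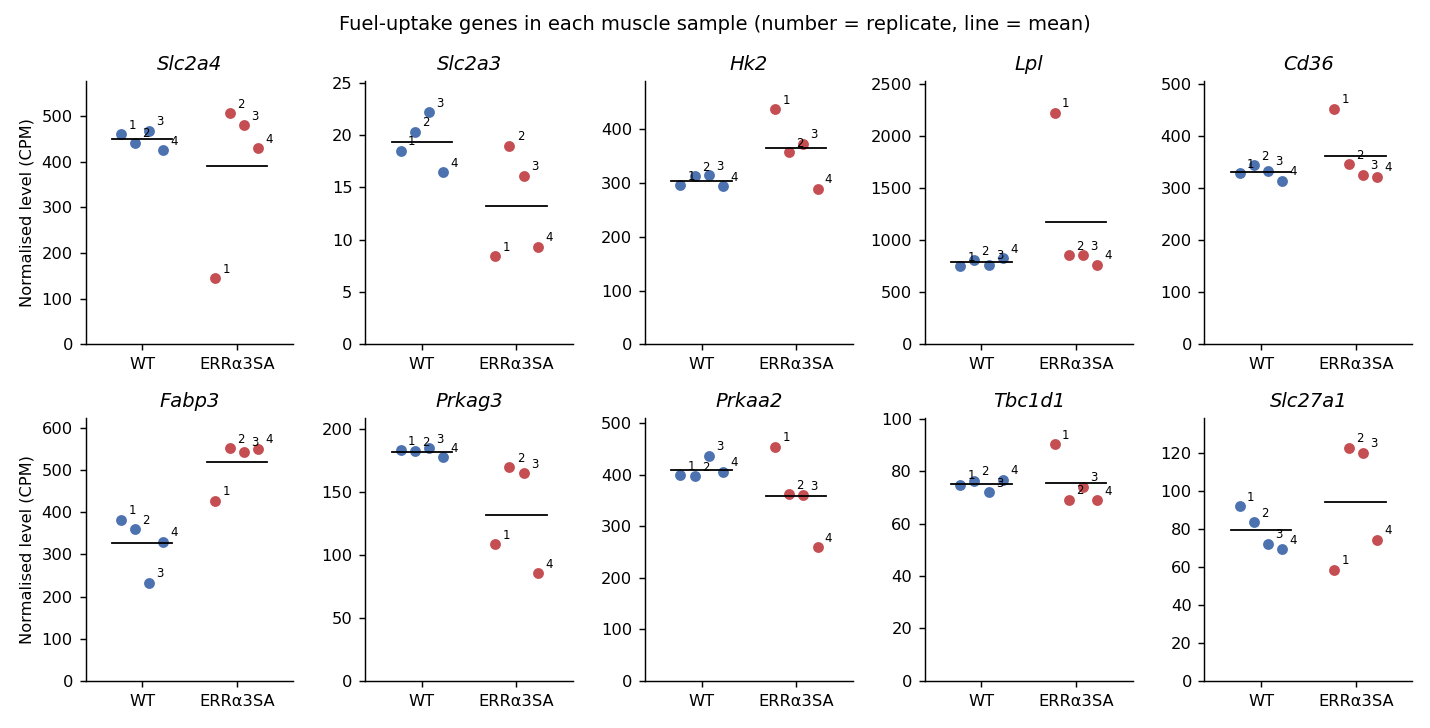
Level in CPM (vertical axes, from 0) of each of the 10 genes in the 4 WT and 4 ERRα3SA muscle samples, with points labelled by replicate and lines at the group means. Fabp3 was above every WT sample in all 4 ERRα3SA samples, and replicate 1 alone was far from the rest of its group for Lpl, at 2227 CPM, and Slc2a4, at 144 CPM.

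Leaving out replicate 1, 3 of the 10 genes met the study's criterion, Fabp3 and Slc27a1 higher and Prkaa2 lower, against 17.4% of the 14363 genes tested. By edgeR 1 of the 10, Fabp3, had an adjusted p under 0.05, against 3.23% of all genes. Leaving out replicates 1 and 4, which keeps 2 ERRα3SA samples, Fabp3, Hk2 and Slc27a1 rose. In that fit 3 of the 10 met the criterion, against 17.8% of all genes, and 3 passed an adjusted p of 0.05 by edgeR, against 10.3%. The 2 samples kept were the most alike pair of replicates in either experiment, with a chi-square of their counts of 6.30 per degree of freedom. The spread within ERRα3SA muscle rests on that pair there. The median log2 fold change of the 10 genes was 0.10 with all samples and 0.07 without replicate 1, beside 0.02 and 0.02 over all genes tested.

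**Figure D4:**
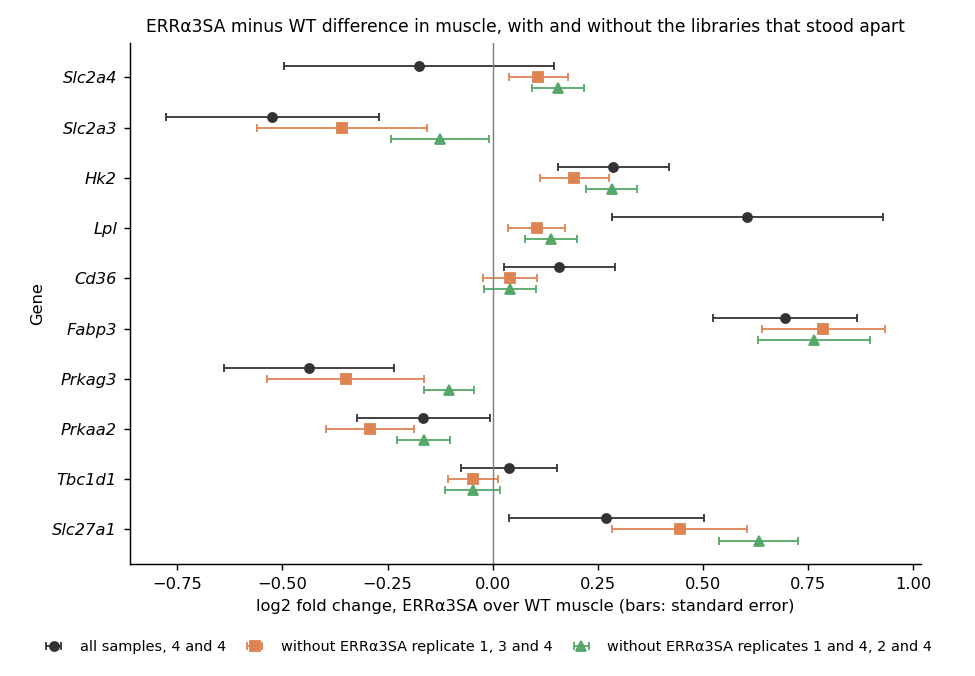
Log2 fold change of ERRα3SA over WT muscle (horizontal axis, with bars of 1 standard error) for each gene, with all samples, without ERRα3SA replicate 1 and without replicates 1 and 4. Fabp3 kept a value of 0.69 to 0.79, Lpl went from 0.61 to 0.10 without replicate 1, and Prkag3 and Slc2a3 moved to -0.10 and -0.12 without replicates 1 and 4.

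Wider lists of the same routes were read beside the share of all genes that met the study's criterion. That share was 4.54% with all samples and 17.4% without replicate 1, so a higher count without that library is the rule over all genes. Between them these lists include the 10 genes, so their counts and medians reuse those values. Of 22 genes of glucose transport and phosphorylation, 1 met the study's criterion with all samples, Pak1 at 0.56, a kinase of the actin route to GLUT4, and the median log2 fold change was 0.03. Without replicate 1, 3 were higher by that criterion (Hk1 at 0.29, Pak1 at 0.31 and the motor gene Myo1c at 0.35) and 1 lower (the vesicle fusion gene Stxbp3 at -0.34), which is 4 of 22 and near the share of all genes, with a median of 0.06 and an adjusted p of 0.0882 or higher by edgeR. Of 11 AMPK subunits and upstream kinases, Prkab1 alone met it with all samples, at 0.31 with a list median of 0.05. Without replicate 1, Prkab1 (0.37), Prkag1 (0.44) and Stk11 (0.30), which encodes the upstream kinase LKB1, met it upwards and Prkaa2 downwards, with a median of -0.01. Stk11 rose, with an adjusted p of 0.0403 by edgeR. Prkag1 shares 950 of its 2175 exon bases with a gene on the other strand.

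Of 10 genes that handle lipoprotein lipase, 6 passed the filter, since the liver-made Angptl8, Apoc2, Apoc3 and Apoa5 had at most 3 counts per muscle sample. Angptl4, a secreted inhibitor of the lipase, met the criterion with all samples at 1.56 and without replicate 1 at 1.89 (adjusted p = 0.0882 by edgeR), when Lmf1 (0.31) and Vldlr (-0.44) did too. The list medians were 0.10 and 0.18, and 1 and 3 of 6 genes are few to set beside 4.54% and 17.4% of all genes. Of 15 genes of fatty acid uptake, binding and activation, Fabp3 alone met the criterion with all samples, with a median of 0.18. Without replicate 1, Fabp3, Slc27a1, Slc27a4 (0.42) and Fabp5 (0.59) met it upwards, and the acyl-CoA synthetase genes Acsl3 and Acsl4 downwards, 6 of 15 against 17.4% of all genes, with a median of 0.12. Acsl3 fell by 0.61 on the log2 scale (adjusted p = 0.00532 by edgeR) and Acsl4 by 0.35 (adjusted p = 0.0412). Of 12 lipid-responsive targets of PPAR and ERR receptors, 11 were higher in each fit, beside 54.4% and 53.2% of all genes, and the median was 0.38 in each. The study had named Pdk4, a gene of this list, as raised in ERRα3SA muscle. The list was also chosen with earlier results of these data known, so its count and median are not independent evidence. With all samples 1 of 12 met the criterion, Angptl4, against 4.54% of all genes, and without replicate 1 there were 5 of 12 against 17.4%, with Pdk4 at 0.78, Ucp3 at 0.59, Cpt1b at 0.95 and Plin5 at 0.73 beside Angptl4, each with an adjusted p of 0.0882 or higher by edgeR. Exons of Cpt1b lie for 2744 of 3372 bases under another gene on the same strand.

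Markers of fibres and other cells were read in the same way, and all-gene medians were 0.02 in both fits. Of 9 slow fibre genes, Tnni1 was lower by the criterion with all samples (-0.50), and Myh7 (-0.48), Tnnc1 (-0.56) and Tnni1 (-0.37) were without replicate 1, with medians of 0.02 and -0.09. Of 10 fast fibre genes, Tnnc2 was higher in both fits (1.21 and 1.43), and Casq1 lower (-0.37) without replicate 1, with medians of 0.24 and 0.00. Tnnc2 shares 592 of 800 exon bases with Ube2c on the other strand. None of the 10 skeletal muscle markers met the criterion in either fit by edgeR, with medians of 0.14 and -0.05. The 3 nerve and Schwann cell markers Mbp, Sox10 and Ncmap were lower by the criterion in both fits, with medians of -0.80 and -0.72, and without replicate 1 Mbp fell by 0.72 (adjusted p = 0.0481 by edgeR). Their sum, mostly Mbp and with none at 0, was 90.3, 65.2, 70.4 and 64.9 CPM in WT muscle and 21.9, 34.8, 47.0 and 47.6 CPM in ERRα3SA muscle, with no overlap, so nerve transcript moved with genotype, and its part in the results of the fuel genes was not tested.

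Of 8 adipocyte markers 7 were tested, and Retn was lower by the criterion in both fits (-1.22 and -1.2). Without replicate 1 Retn fell with an adjusted p of 0.0317 by edgeR and Adrb3 was at -0.80, with list medians of -0.33 and -0.21. All 7 macrophage markers were higher in both fits, with medians of 0.71 and 1.02, and without replicate 1 Cd68 (1.84) and C1qa (1.02) met the criterion. Both fits keep replicate 4, whose macrophage sum of 224 CPM was the only one above the WT range of 74.5 to 97.2 CPM. Of 6 neutrophil markers Csf3r alone was tested, at 2.76 and 3.11, above the criterion in both fits, with 8.79 CPM in replicate 4 and 0.227 to 0.507 CPM in replicates 1 to 3. Of 8 endothelial markers Egfl7 rose by 0.40 without replicate 1 (adjusted p = 0.050 by edgeR, just under the threshold before rounding), with list medians of 0.08 and -0.04. In that fit 3 of the 8 were higher and 5 lower. Of 5 fibroblast markers Dcn fell by 0.55 without replicate 1 (adjusted p = 0.0332 by edgeR), with medians of 0.12 and -0.05. In that fit 2 of the 5 were higher, by up to 0.96, and 3 lower. The 5 erythroid markers had medians of 0.47 and 0.28, with Hba-a2 (0.93) over the criterion with all samples and Hbb-bt (1.2) without replicate 1, and the 4 satellite cell markers had -0.19 and -0.33, with Myf5 at -0.50 and -0.59. Alb was the only liver marker tested, at -0.31 and -0.51, from at most 1.76 CPM of liver markers.

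In the livers of the same experiment, none of the fuel-uptake genes that could be tested passed either threshold. ERRα3SA liver replicate 4 stood somewhat apart, with a mean absolute deviation of 0.317 against 0.171 to 0.223 in the rest of its group. Its liver markers summed to 86444 CPM against 114125 to 127720 in the rest. Leaving it out turned Cd36 into a call by the study's criterion, as given below. Why it stood apart was not tested. Cd36 came closest to a threshold, through a pair of samples. It was at 48.9, 50.6, 29.2 and 28.2 CPM in WT littermate liver and at 36.3, 71.9, 172 and 27.3 CPM in ERRα3SA liver. Replicates 2 and 3 were above every WT sample, replicate 1 within the WT range and replicate 4 just under it. The log2 fold change was 0.97 (standard error 0.51, adjusted p = 0.719 by edgeR), and it met the study's criterion at 1.2 without ERRα3SA liver replicate 1 and at 1.25 without replicate 4. Without replicate 3 the log2 fold change of Cd36 was 0.20 (standard error 0.33), so 1 library carried most of its value. Prkaa2 was at 87.1, 90.1, 85.2 and 91.3 CPM in WT and at 78.8, 95.5, 99.5 and 96.3 CPM in ERRα3SA liver, overlapping, and differed by 0.07 on the log2 scale (standard error 0.08). Of 8 genes tested (all but Fabp3 and Prkag3), 0 met the study's criterion, against 4.88% of the 13339 genes tested, and 0 had an adjusted p under 0.05, against 0%. Both counts are from edgeR, which gave 0 of the 8 an unadjusted p under 0.05, and DESeq2 and voom gave 0 of them either call.

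Transcripts of the muscle-restricted members in liver came in traces. Fabp3 had 9, 0, 0 and 0 counts in WT littermate liver and 0, 0, 7 and 0 in ERRα3SA liver. The skeletal muscle markers summed to 21.5, 5.75, 5.87 and 4.64 CPM in the former and to 4.47, 4.82, 19.6 and 4.91 CPM in the latter, so the livers with Fabp3 counts, WT replicate 1 and ERRα3SA replicate 3, were those with the most muscle transcript. Prkag3 had at most 7 counts in any of these 8 livers. The remaining tested members in ERRα3SA liver had log2 fold changes from -0.22 (Slc2a3) to 0.51 (Hk2).

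Whether the effect of ERRα3SA differed between tissues was tested as an interaction, given as the log2 fold change in muscle minus that in liver. With all samples 0 of the 10 genes met the study's criterion, against 5.57% of the 15688 genes tested, and 0 had an adjusted p under 0.05, against 0% (edgeR, with 0 of the 10 at an unadjusted p under 0.05). DESeq2 gave 0 of either call, and voom 1 by the criterion, as for 2973 of 15688 genes, and 0 adjusted. Without ERRα3SA muscle replicate 1, Prkaa2 at -0.39 (standard error 0.15, adjusted p = 0.187) and Slc27a1 at 0.56 (0.23, adjusted p = 0.210) met the criterion, 2 of 10 against 17.3% of all genes, and 0 passed an adjusted p of 0.05 by edgeR, against 2.3%. Without replicates 1 and 4, Slc27a1 at 0.76 (0.17, adjusted p = 0.0377) was the only one to pass either threshold, 1 of 10 against 17% by the criterion and 1 of 10 against 2.4% by the adjusted p. In liver Slc27a1 was at 5.84, 5.39, 5.75 and 4.37 CPM in WT and at 4.0, 4.91, 4.90 and 5.44 CPM in ERRα3SA mice, with overlap. The interaction of Fabp3 was 0.71 (standard error 1.29), with few liver counts under it, and it met the criterion without ERRα3SA liver replicate 3. That fit has no Fabp3 count in ERRα3SA liver and 9 in 1 WT liver, so its size is set by the prior count and its call is no evidence of a difference. Cd36 met the criterion at -1.10 without ERRα3SA liver replicate 4 and Lpl at 0.78 without ERRα3SA muscle replicate 4.

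Insulin given to fasted WT mice asks whether hepatic levels of these genes respond to the hormone within hours. Of 8 genes tested, 1 met the study's criterion, Slc2a4, against 17.2% of the 13463 genes tested, and 0 had an adjusted p under 0.05, against 3.16% (edgeR, with 1 of the 8 at an unadjusted p under 0.05), and DESeq2 and voom gave 0 adjusted calls as well. Slc2a4 had 0, 8, 6 and 13 counts with saline and 3, 65, 51 and 34 counts with insulin. Insulin replicates 2, 3 and 4 were above every saline sample, and replicate 1 was among them. The gene thus passed the count filter through the insulin group, and its call is not counted as evidence of a response. On the log2 scale the fold change was 2.56 (standard error 0.98, adjusted p = 0.205 by edgeR), and its call was lost at 2.48 without saline replicate 3, at 2.07 without insulin replicate 2 and at 2.44 without insulin replicate 3. Prkaa2 met the criterion at 0.33 without insulin replicate 2. The skeletal muscle markers summed to 2.56, 4.70, 6.88 and 5.92 CPM with saline and to 10.8, 3.15, 131 and 4.74 CPM with insulin, so muscle transcript was high in insulin replicate 3 and low in replicate 2, which had the most Slc2a4. Insulin replicate 2 also had the fewest genes with a count, 14507, and the lowest mitochondrial share, 1.88%. Its mean absolute deviation was 0.512, against 0.290 to 0.369 in the rest of its group, so it stood apart. The part of these in the value of Slc2a4 was not tested.

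In ERRα KO mice given insulin, Hk2 upwards and Cd36 downwards met the study's criterion, and Slc2a4 had too few counts to be tested. Hk2 was at 0.919, 0.679, 1.37 and 1.95 CPM with saline and at 2.37, 2.77 and 2.42 CPM with insulin. The groups did not overlap, though Hk2 is scarce in liver. By edgeR its log2 fold change was 1.03 (standard error 0.37, adjusted p = 0.178 by edgeR), and without insulin replicate 2 it was 0.95 and past neither threshold. Cd36 was at 50.7, 39.1, 30.1 and 40.9 CPM with saline and at 29.3, 25.9 and 26.7 CPM with insulin, again without overlap. Its log2 fold change was -0.56 (standard error 0.16, adjusted p = 0.0923 by edgeR), and the adjusted call was reached without saline replicate 3 and by DESeq2. These are 2 of 7 genes tested, against 17.2% of 13684 by the criterion, and 0 of 7 against 2.91% by edgeR's adjusted p, where 2 of 7 had an unadjusted p under 0.05, DESeq2 gave 1 adjusted call (of 1013 among 13673 genes) and voom 0. Without saline replicate 2, 5 of 7 met the criterion, beside 2371 of all 13466 genes, with Lpl at -0.66, Prkaa2 at 0.41 and Slc27a1 at 0.67 added.

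The difference of the insulin effect between genotypes was tested as well, as ERRα KO minus WT. Of 9 genes tested (all but Fabp3), 0 met the study's criterion, against 8.79% of the 14670 genes tested, and 0 had an adjusted p under 0.05, against 0% (edgeR, with 0 of the 9 at an unadjusted p under 0.05, and 0 of either call by DESeq2 and voom). The value was 0.60 (standard error 0.59) for Hk2, -0.57 (0.43) for Cd36 and -1.26 (1.35) for Slc2a4. Slc2a3 had the lowest value of the 9 genes, -1.70, and met neither threshold. Calls made in 1 genotype were thus not shown to differ from the other. For Prkaa2 the value was 0.00 (standard error 0.23). Slc27a1 met the criterion at 0.73 without ERRα KO saline replicate 2, and Cd36 at -0.97 without WT saline replicate 4.

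Between ERRα KO and WT livers, the AMPK catalytic subunit gene Prkaa2 met the study's criterion under both treatments, without an adjusted call by edgeR. With saline Prkaa2 was at 75.8, 76.2, 73.6 and 77.9 CPM in WT and at 48.1, 79.1, 50.7 and 54.3 CPM in ERRα KO liver. The WT values were nearly level, and 3 of the 4 ERRα KO values were below all of them while replicate 2 was above all. In the fit the log2 fold change was -0.39 (standard error 0.15, adjusted p = 0.322 by edgeR), and the call was lost at -0.31, -0.33 and -0.35 without ERRα KO saline replicate 1, 3 or 4. With insulin Prkaa2 was at 82.8, 66.8, 104 and 100 CPM in WT and at 67.8, 73.9 and 61.5 CPM in ERRα KO liver, where only WT replicate 2 reached down into the ERRα KO range. The log2 fold change was -0.39 (standard error 0.16, adjusted p = 0.457 by edgeR), and the call was lost at -0.39 and -0.31 without ERRα KO insulin replicate 1 or 4 and at -0.30 and -0.33 without WT insulin replicate 3 or 4.

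With saline, Prkaa2 was 1 of 7 tested genes to meet the criterion, near the 11.3% of the 13481 genes tested, and 0 of 7 passed an adjusted p of 0.05 by edgeR, against 0.0816%, with 1 at an unadjusted p under 0.05 and 0 adjusted calls by DESeq2 and voom. Lpl met the criterion at 0.53 without ERRα KO saline replicate 2 and Cd36 at 0.54 without WT saline replicate 4. After insulin Slc2a3 joined it. Slc2a3 was at 1.01, 0.879, 0.502 and 1.64 CPM in WT and at 0.416, 0.0823 and 0.217 CPM in ERRα KO liver given insulin. The groups did not overlap, at a low level. Its 16, 3 and 8 counts in the ERRα KO livers mean that it passed the count filter through the WT group. Its call is therefore not counted as evidence of a difference. On the log2 scale the fold change was -2.07 (standard error 0.72, adjusted p = 0.353 by edgeR), and the call was lost at -1.67 without ERRα KO insulin replicate 2 and at -1.73 without WT insulin replicate 4. These are 2 of 8 tested genes against 9.99% of the 13665 genes tested, and 0 of 8 against 0.0585% by edgeR's adjusted p, with 2 at an unadjusted p under 0.05, 0 adjusted calls by DESeq2 and 1 by voom, that of Prkaa2, of 272 among 13665 genes. Without WT insulin replicate 1, 4 of 8 met the criterion, beside 1498 of all 13409 genes, with Slc2a4 at -1.89 and Hk2 at 0.81 added. Slc2a4 had too few counts to be tested within ERRα KO livers, so it too passed the filter through the WT group. Tbc1d1 met the criterion at 0.62 without ERRα KO insulin replicate 1, Slc27a1 at 0.46 without replicate 4 and Cd36 at -0.61 without WT insulin replicate 2. The comparisons of the insulin experiment share groups, so their values are set side by side and not related to each other.

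**Figure D5:**
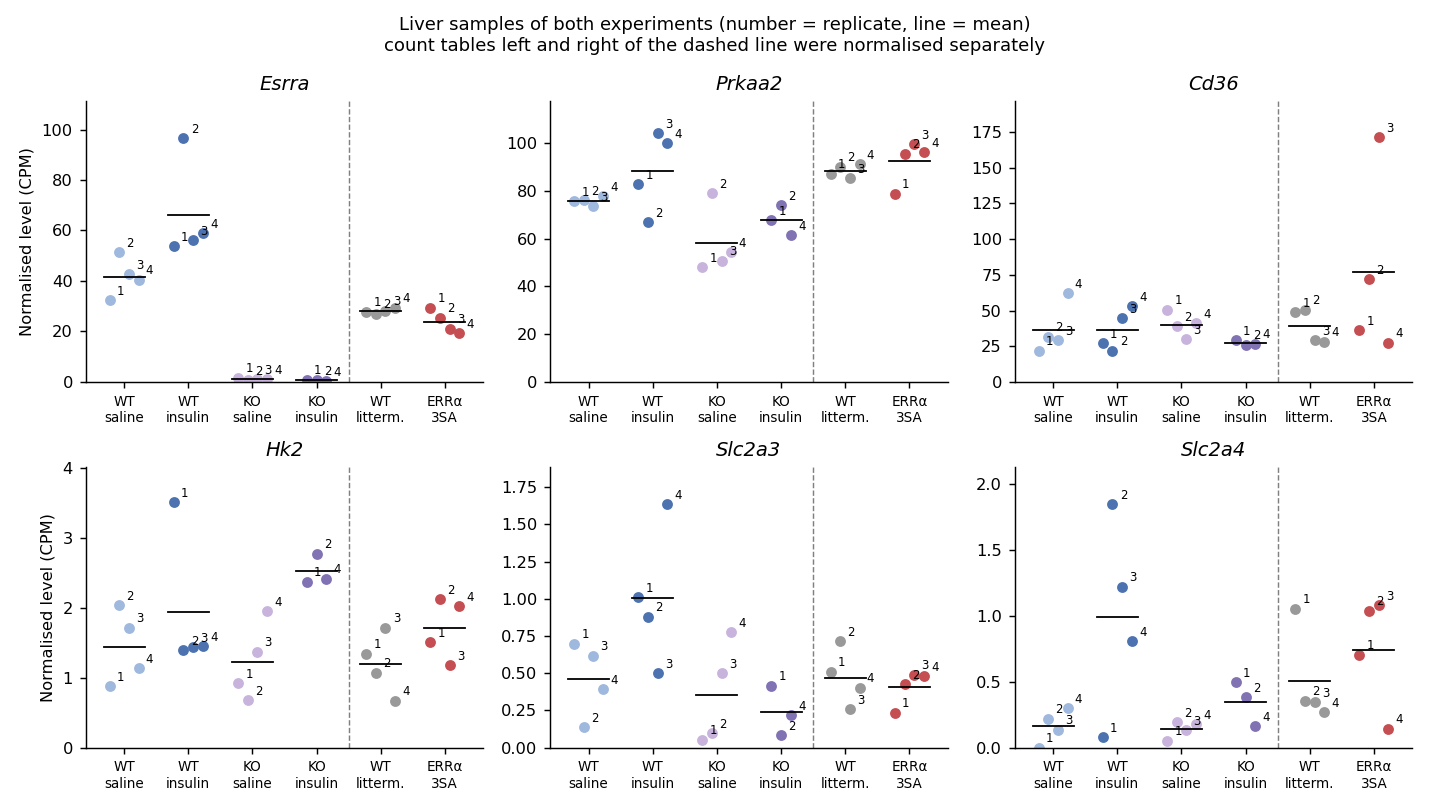
Level in CPM (vertical axes, from 0) of Esrra and 5 fuel-uptake genes in each liver of both experiments, with points labelled by replicate and lines at the group means. Prkaa2 was at 48.1 to 54.3 CPM in 3 of 4 ERRα KO livers given saline against 73.6 to 77.9 CPM in WT, and Cd36 reached 172 CPM in ERRα3SA liver replicate 3.

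The other members gave no call in the insulin experiment with all samples by edgeR. Lpl was at 20.5 to 26.5 CPM in WT livers given saline, 15.5 to 26.3 in WT livers given insulin, 16.8 to 47.5 in ERRα KO livers given saline and 16.3 to 26.8 in ERRα KO livers given insulin. Tbc1d1 spanned 4.82 to 11 CPM and Slc27a1 15.7 to 40.6 CPM over the 15 livers. Prkag3 had at most 20 counts and Fabp3 at most 28 in any of them.

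The wider lists in liver named few genes past the adjusted threshold. In WT mice given insulin, 5 genes of the lists rose by edgeR, to be read beside the 3.16% of all genes with such a call. Of 10 genes that handle lipoprotein lipase these were Gpihbp1, its capillary anchor (0.92, adjusted p = 0.0226), and Angptl4 (0.88, adjusted p = 0.0226), and of 10 tested lipid-responsive targets Pdk4 (2.54, adjusted p = 0.0150), Plin5 (1.66, adjusted p = 0.00197) and again Angptl4. The fat droplet gene Cidec of the adipocyte list rose too (1.54, adjusted p = 0.0466). WT insulin replicate 2, which stood apart, is in this comparison and in that of ERRα KO against WT with insulin. Its part in the list values was not tested. The list medians were 0.06 and 0.09 for the first 2 lists. In ERRα KO mice given insulin, Pdk4 rose by 1.42 (adjusted p = 0.0364 by edgeR) and Plin5 by 1.17 (adjusted p = 0.00503), and Plin2 fell by 1.11 (adjusted p = 0.00571), with a list median of -0.03, beside 2.91% of all genes with such a call. The other 5 liver comparisons of ERRα KO, ERRα3SA and their interactions with all samples gave 0 list genes an adjusted p under 0.05 by edgeR other than Esrra.

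Over the 17 lists in liver, the median log2 fold changes of the glucose transport list were 0.01 for ERRα3SA, 0.04 for insulin in WT, 0.04 for insulin in ERRα KO, -0.06 for ERRα KO with saline and -0.10 with insulin. Those of the AMPK list were 0.04, 0.08, 0.13, 0.00 and -0.04 in the same order, those of fatty acid uptake -0.02, 0.02, 0.23, 0.00 and -0.03, and those of lipoprotein lipase handling -0.03, 0.06, -0.27, 0.29 and -0.11. The lipid-responsive targets had 0.17, 0.09, -0.03, 0.16 and -0.11. All-gene medians in these 5 comparisons were 0.00, 0.00, -0.02, 0.00 and -0.02. Every other list, of fibres and cell types, lay between -0.29 (skeletal muscle markers) and 0.47 (neutrophil markers) for ERRα3SA. The range was -0.31 (macrophage markers) to 1.25 (skeletal muscle markers) for insulin in WT, and -0.98 (fast fibre, 1 gene tested) to 0.93 (satellite cell markers, 1 gene tested) for insulin in ERRα KO. It was -0.60 (fast fibre, 1 gene tested) to 0.82 (adipocyte markers) for ERRα KO with saline and -3.12 (fast fibre) to 0.78 (adipocyte markers) with insulin. WT insulin replicate 3, with 131 CPM of skeletal muscle markers, is in the last comparison, in that of insulin in WT and in the interaction of genotype and insulin, and its part in their fibre and skeletal muscle values was not tested.

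In the interactions, list medians ran from -3.03 (fast fibre) to 0.50 (erythroid markers) for genotype by insulin and from -1.27 (nerve and Schwann cell markers) to 1.79 (neutrophil markers) for tissue by genotype. Without ERRα3SA muscle replicate 1 the latter ran from -1.36 to 1.99 for the same lists, and Egfl7 (0.82, adjusted p = 0.0277), Dcn (-0.62, adjusted p = 0.0390) and Esrra (0.81, adjusted p = 0.0418) passed the adjusted threshold by edgeR. Between WT muscle and WT liver, medians ran from -16.42 (liver markers) to 14.36 (fast fibre). That of glucose transport was 1.22, of AMPK 0.50, of fatty acid uptake -0.31, of lipid-responsive targets -0.40 and of lipoprotein lipase handling -3.13, where 8 of 10 genes were lower in muscle and Lpl and Vldlr were higher.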

How the data were processed

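Per the labels, the authors made the deposited gene counts from paired-end reads placed on mm10 by STAR, and the strand setting is not stated, so transcripts overlapping on opposite strands cannot be separated. Each comparison was fitted on the counts of its own groups with edgeR 4.0.16 in R 4.3.3 (TMM, filterByExpr, quasi-likelihood test, Benjamini-Hochberg over all genes tested). The study's criterion is an unadjusted p under 0.05 with a fold of at least 1.2 in either direction; the study used it with DESeq2, and here it is applied to edgeR. DESeq2 1.42.0, limma 3.58.1 (voom with sample quality weights), RLE scaling, removal of mitochondrial genes, no count filter, joint fits, a replicate block and leaving out each sample were tried. The tests were tested on simulated data with 200 genes changed by a log2 fold of 1.5, larger than any ERRα3SA effect fitted for the 10 genes in muscle, of which edgeR found 74.5% in the muscle design, with 5.1% of its calls false. No library was simulated to stand apart as ERRα3SA muscle replicates 1 and 4 did, so these rates need not hold for the muscle data. Replicate 3 of the ERRα KO livers given insulin is absent from the tables. Symbols were matched for 54409 of 54532 and 34490 of 35275 identifiers. The genes described and the 17 lists were chosen with earlier results of these data known. List genes are named where they met the study's criterion in muscle, with or without ERRα3SA replicate 1, or had an adjusted p under 0.05 in liver, up to 6 per list; others named were chosen after their values were seen. A few genes of the lists are not reported here and were left out of every count, median and sum of a list.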

Additional observations from a re-analysis of the deposited data

Results flagged for a closer look

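Of 134 groups of 4 samples looked at, 22 held a lone value far from the other 3, and chance gives about 1 in 20 such groups. The groups are not independent, since the sum of a list holds its genes (2227 of the 2889 CPM of lipoprotein lipase handling in ERRα3SA muscle replicate 1 are Lpl), and a gene with counts in 1 liver only is such a value by construction, so the number is no measure of an excess. ERRα3SA muscle replicate 1 held 6 of them. These were the highest Lpl (2227 CPM), the lowest Fabp3 (427 CPM), the highest mitochondrial share (19.3%), the fewest genes with a count (16984), and the highest sums of lipoprotein lipase handling (2889 CPM) and endothelial markers (397 CPM). ERRα3SA muscle replicate 4 held 3, the lowest sum of AMPK subunits and upstream kinases (1290 CPM) and the highest of macrophage (224 CPM) and neutrophil markers (18.4 CPM). Replicate 2 of the same group had the highest sum of lipid-responsive targets (2413 CPM). In WT muscle, replicate 2 was far out in neutrophil markers (3.00 CPM).

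Among livers, WT littermate replicate 1 was far out in Slc2a4 (1.05 CPM) and Fabp3 (0.287 CPM), and ERRα3SA liver replicate 3 in Fabp3 (0.343 CPM). ERRα3SA liver replicate 4 had the lowest total count of its group (20481405). WT liver insulin replicate 1 was highest in Hk2 (3.51 CPM), and replicate 2 was highest in Esrra (96.5 CPM) and lowest in mitochondrial share (1.88%) and genes with a count (14507). ERRα KO liver saline replicate 1 was highest in Fabp3 (0.236 CPM) and Prkag3 (0.499 CPM), both from few counts, and replicate 3 in mitochondrial share (3.91%).

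Between groups, the mean level of Esrra was 24.6 CPM higher with insulin than with saline in WT liver and -0.562 CPM from it, the other way, in ERRα KO liver. The difference of those means was not tested. On the log2 scale the interaction of genotype and insulin for Esrra was -1.65 (adjusted p = 0.422 by edgeR), past the study's criterion only. Its means in ERRα KO liver were 1.13 CPM with saline and 0.569 CPM with insulin. The ERRα KO side thus rests on residual reads, and no difference in the action of insulin is read from the value. Without ERRα3SA muscle replicate 1, the difference in the effect of ERRα3SA between muscle and liver met the study's criterion for Esrra (0.81), Prkaa2 (-0.39) and Slc27a1 (0.56). Of all genes 17.3% met it in that fit, the adjusted p by edgeR was 0.187 for Prkaa2 and 0.210 for Slc27a1, and Prkaa2 did not meet it without replicates 1 and 4.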

How the results depend on the processing

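No log2 fold change of the 10 genes that had passed a threshold changed sign under any alternative: of the alternative values, 1176 kept direction and side of the threshold, 16 lost a call, 44 gained one and 46 moved without one. Counts of genes past a threshold stayed within 1.5 times in 248 cases and moved in 48. By that rule 0 against 0 stays and 0 against 1 moves, so these numbers are no measure of how firm the counts are. All 10 genes kept their calls in WT muscle against WT liver throughout. For ERRα3SA in muscle, the study's criterion was met by 2 genes with DESeq2, 3 without the count filter, 3 with voom, 2 with all groups of the table fitted together, 3 without replicates 1 and 4 (chosen after seeing the data) and 1 to 3 without each replicate in turn. Adjusted calls there were 1 with DESeq2, 3 with voom, 3 without replicates 1 and 4, and 0 to 1 without each replicate in turn. In ERRα3SA liver the criterion was met by 1 without the filter, 1 with all groups fitted together and 0 to 1 without each replicate. For insulin in WT liver it was met by 2 with voom and 0 to 1 without each replicate. For insulin in ERRα KO liver it was met by 1 with all groups together and 1 to 5 without each replicate, and adjusted calls were 1 with DESeq2, 1 without the filter and 0 to 1 without each replicate. For ERRα KO against WT it was met by 0 to 2 with saline and 0 to 4 with insulin without each replicate, and with insulin voom gave 1 adjusted call. For genotype by insulin it was met by 0 to 1 without each replicate. For tissue by genotype it was met by 1 with voom, 1 without replicates 1 and 4 (with 1 adjusted call) and 0 to 2 without each replicate. With a replicate block the criterion was met by 3 genes in ERRα3SA muscle and 1 in ERRα KO against WT with insulin. For insulin in ERRα KO liver 1 adjusted call was made. No comparison had every same-number correlation above 0.1 (-0.18 to 0.04 in muscle). The sample of the same number was the best match in 3 of 4 cases for WT littermate liver against muscle and for ERRα KO against WT with saline. These correlations cannot exclude that samples of 1 number share a mouse or litter. The main fits treat all samples as independent. The longest transcript moved 8 of 10 levels per length. The cause of these moves was not tested. Low counts limit Fabp3, Prkag3, Slc2a4 and Slc2a3 in liver.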
